A study of Mus musculus with 35 samples.

Results

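The CC chemokine system of the mouse lung was followed at the RNA level across time of day and neutrophil depletion. Genes were taken by name, as every gene of the expression table whose symbol is Ccl or Ccr followed by a number and an optional letter and number. This gave 30 of the 22211 genes, made up of 20 ligand genes and 10 receptor genes. All libraries came from the perfused left lung lobe of male C57BL/6 mice of 7 to 9 weeks. Wild-type mice received anti-Ly6G (clone 1A8), an antibody against a neutrophil surface protein, or a control IgG, each at 3 µg per g body weight under the skin on 2 consecutive days. The anti-Ly6G groups held 7 mice at ZT16 and 7 at ZT4, and the control groups held the same numbers, with 3 mice of each group from July 2017 and 4 from September 2017. MRP8-Cre;iDTR-flox mice, in which Cre from a myeloid promoter makes cells carry a diphtheria toxin receptor, received DT (diphtheria toxin) at 10 ng per g on the same schedule, with 3 mice at ZT16 and 4 at ZT4. The DT mice all came from April 2018, a batch without control mice, so toxin, genotype and batch cannot be told apart in them, and their levels were not set against those of other mice. ZT16 and ZT4 are 16 and 4 hours after lights on. ZT16 mice lived in cabinets with an inverted light cycle and ZT4 mice in the normal facility, so time of day and housing cannot be told apart.

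CC chemokines are small secreted proteins with a pair of adjacent cysteines that bind receptors coupled to G proteins on leukocytes and steer where those cells go. Some, such as CCL19 and CCL21, guide lymphocytes and dendritic cells through lymphoid tissue, and others, such as CCL2 and CCL7, draw monocytes out of the blood. In the lung the receptors are carried mainly by monocytes, macrophages, dendritic cells, lymphocytes and granulocytes, and most are absent from epithelium. In bulk lung, fewer cells of a type and less RNA per cell cannot be told apart.

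Of the 30 genes, 24 reached a normalised expression value of 1 in at least 3 libraries and were tested, 16 ligands and 8 receptors. The 6 that did not were Ccl3, Ccl4, Ccl20, Ccl21b, Ccr3 and Ccr8, which are described by their levels. Values of different genes were not compared, since the scale is not one per length. Among the tested genes 14 stood at or above 1 in all 35 libraries, while 10, including Ccl2, Ccl7, Ccl12 and Ccr6, were below 1 in some. The SD of a gene between mice of the same group and batch, on the log2 scale, ran between 0.154 for Ccl27a, a skin and mucosal chemokine, and 0.563 for Ccl2, against a median of 0.168 over all tested genes. Changes are given as log2 of the value plus 0.5, which understates the change of low genes, and a gene is said to have risen or fallen where limma's adjusted p over all 16786 tested genes was under 0.05. As a check of the tissue, the summed markers of alveolar type 2 cells stood between 22260 and 30480 in every library. The 8 tested neutrophil markers all had lower values in anti-Ly6G than in control mice at both times, with a median log2 difference of -0.54 at ZT16 and -1.14 at ZT4, and 0 of them passed the test at either time. The sum of all 10 listed neutrophil markers, tested or not, was 23.2, 29.97 and 38.8 (lowest, median and highest) in ZT16 anti-Ly6G mice. It was 26.4, 58.5 and 91.7 in ZT16 controls. At ZT4 it was 28.4, 43.6 and 62.2 in anti-Ly6G mice against 49.3, 64.9 and 783.9 in controls. One ZT4 control of September stood far above the rest in that sum.

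The family sits in clusters, and neighbours in the genome are often relatives in sequence. On the GRCm38 build, 12 of the 30 genes lie on chromosome 11 and 7 on chromosome 9. Ccl2, Ccl7, Ccl11, Ccl12 and Ccl8 lie together at chr11:82035571-82116799, and Ccl5, Ccl9, Ccl6, Ccl3 and Ccl4 at chr11:83525778-83664683. Ccr9, Ccr1, Ccr3 and Ccr2 follow each other on chromosome 9. Ccl19 and Ccl21a are 16282 bases apart on chromosome 4. Near-identical copies limit what counting can assign to a single gene. The transcripts of Ccl21a and Ccl21b matched at 400 of 402 aligned bases (99.5%), and Ccl19 matched its pseudogenes Ccl19-ps3 at 324 of 324 and Ccl19-ps1 at 322 of 325 bases. Ccl27a matched Ccl27b at 422 of 425 bases. Values of Ccl19, Ccl21a, Ccl21b and Ccl27a are therefore uncertain as to the copy. One of the differences between the Ccl21 copies is shown in capitals in 60 bases of their transcripts (GENCODE M21, chromosome 4, 5′ to 3′), to show how little sequence separates them.
Ccl21a: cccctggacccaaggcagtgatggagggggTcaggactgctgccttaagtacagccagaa
Ccl21b: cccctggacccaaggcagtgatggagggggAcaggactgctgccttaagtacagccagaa

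The promoters of genes that changed together or most are shown from RefSeq (GRCm38.p6). Each is the 250 bases before the RefSeq start of transcription on the strand of the gene, 5′ to 3′. Gene bounds elsewhere in the text are from GENCODE, and RefSeq starts can differ from them. Ccr2 and Ccl19 are shown because both fell at ZT16 in anti-Ly6G mice, and Ccr6 because it fell at ZT16 in DT mice. Windows of 300 bases (250 before and 50 after the start) were searched on both strands for CACGTG and CACGTT, which are E-boxes of the kind that clock proteins bind, and for AGGTCA, the core site of ROR and REV-ERB receptors. Neighbouring motifs may share letters, and CACGTG reads the same on both strands. CACGTG was in 0 of 25 windows of 21 family members, against 7.15% of 32851 windows of all genes. CACGTT was in 2 of the 25 (4.68% of all), and AGGTCA was in 8 (16.3% of all). Neither the Ccr2 nor the Ccl19 window held any of the 3 motifs, and so both are in lower case throughout. Most bases shown for Ccr2 and Ccl19 lie inside their GENCODE bounds (chr9:124101950-124113557 and chr4:42754525-42756577). By that annotation they are largely not upstream sequence. The first of the Ccr6 starts held AGGTCA on the opposite strand, read here as TGACCT in capitals, 44 bases before the start. The second of the Ccr6 starts held CACGTT 212 bases before it, in capitals, and was 1 of the 2 family windows with that E-box. The other bears the name Ccl21b, at chr4:42172870-42173169. It lies away from the GENCODE bounds of the Ccl21b gene measured here (chr4:42255767-42256432). The bases shown for that second start lie inside the GENCODE bounds of Ccr6 (chr17:8236043-8257141). Ccl20, the ligand of CCR6, held AGGTCA too, as did Ccl3, Ccl6, Ccl17, Ccl22, Ccl25 and Ccl27a. Ccr7 and Ccl5, which also fell in anti-Ly6G mice, had no window in the table used.
Ccr2, chr9:124101933-124102182, plus strand: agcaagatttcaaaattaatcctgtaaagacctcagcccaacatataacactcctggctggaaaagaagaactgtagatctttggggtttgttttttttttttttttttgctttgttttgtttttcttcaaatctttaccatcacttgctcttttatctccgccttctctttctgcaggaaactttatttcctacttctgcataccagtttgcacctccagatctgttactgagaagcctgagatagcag
Ccl19, chr4:42756366-42756615, minus strand: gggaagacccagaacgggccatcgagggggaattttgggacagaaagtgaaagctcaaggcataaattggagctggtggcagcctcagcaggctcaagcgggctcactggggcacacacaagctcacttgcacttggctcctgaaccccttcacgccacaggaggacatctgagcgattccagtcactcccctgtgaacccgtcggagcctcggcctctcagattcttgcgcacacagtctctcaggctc
Ccr6 first start, chr17:8235793-8236042, plus strand: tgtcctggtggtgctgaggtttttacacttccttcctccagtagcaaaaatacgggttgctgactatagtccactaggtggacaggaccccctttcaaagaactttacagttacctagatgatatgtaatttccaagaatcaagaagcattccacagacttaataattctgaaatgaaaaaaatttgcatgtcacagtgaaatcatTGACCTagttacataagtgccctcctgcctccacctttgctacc
Ccr6 second start, chr17:8242276-8242525, plus strand: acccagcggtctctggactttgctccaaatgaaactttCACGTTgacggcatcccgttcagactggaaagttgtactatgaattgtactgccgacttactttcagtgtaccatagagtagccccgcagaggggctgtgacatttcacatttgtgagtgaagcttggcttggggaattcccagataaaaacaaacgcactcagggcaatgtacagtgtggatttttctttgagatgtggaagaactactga

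Time of day was examined first within each treatment. In anti-Ly6G mice, 4 of the 24 genes fell at ZT16 and 0 rose (with only the compared groups in the fit Ccl6 rose, adjusted p 0.0372), namely the receptors Ccr2 and Ccr7 and the ligands Ccl5 and Ccl19, where 20.9% of all tested genes passed the test, 10.4% as lower and 10.6% as higher. In control mice only Ccl5 of the 24 fell and 0 rose, where 9.04% of all genes passed (4.65% higher and 4.38% lower). In DT mice Ccr6 of the 24 fell and 0 rose, where 15.3% of all genes passed (5.3% higher and 9.98% lower). At an unadjusted p under 0.05, 7 of 24 genes were found in anti-Ly6G mice (33.4% of all genes), 5 of 24 in controls (23.8%) and 3 of 24 in DT mice (29.8%). Taken without direction, none of these counts exceeds the share of all genes, and those in DT mice lie well below it. By themselves the counts therefore show no more change in the family than among all genes. The median log2 time change over the 24 genes was -0.20 in anti-Ly6G mice, -0.08 in controls and -0.02 in DT mice, beside -0.016, -0.0018 and -0.0090 over all tested genes. Values were negative for 19 of 24 genes in anti-Ly6G mice, for 19 of 24 in controls and for 12 of 24 in DT mice. They were negative in both the July and the September mice for 15 of 24 genes under anti-Ly6G (35.8% of all genes) and for 11 of 24 in controls (31% of all genes).

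**Figure D1:**
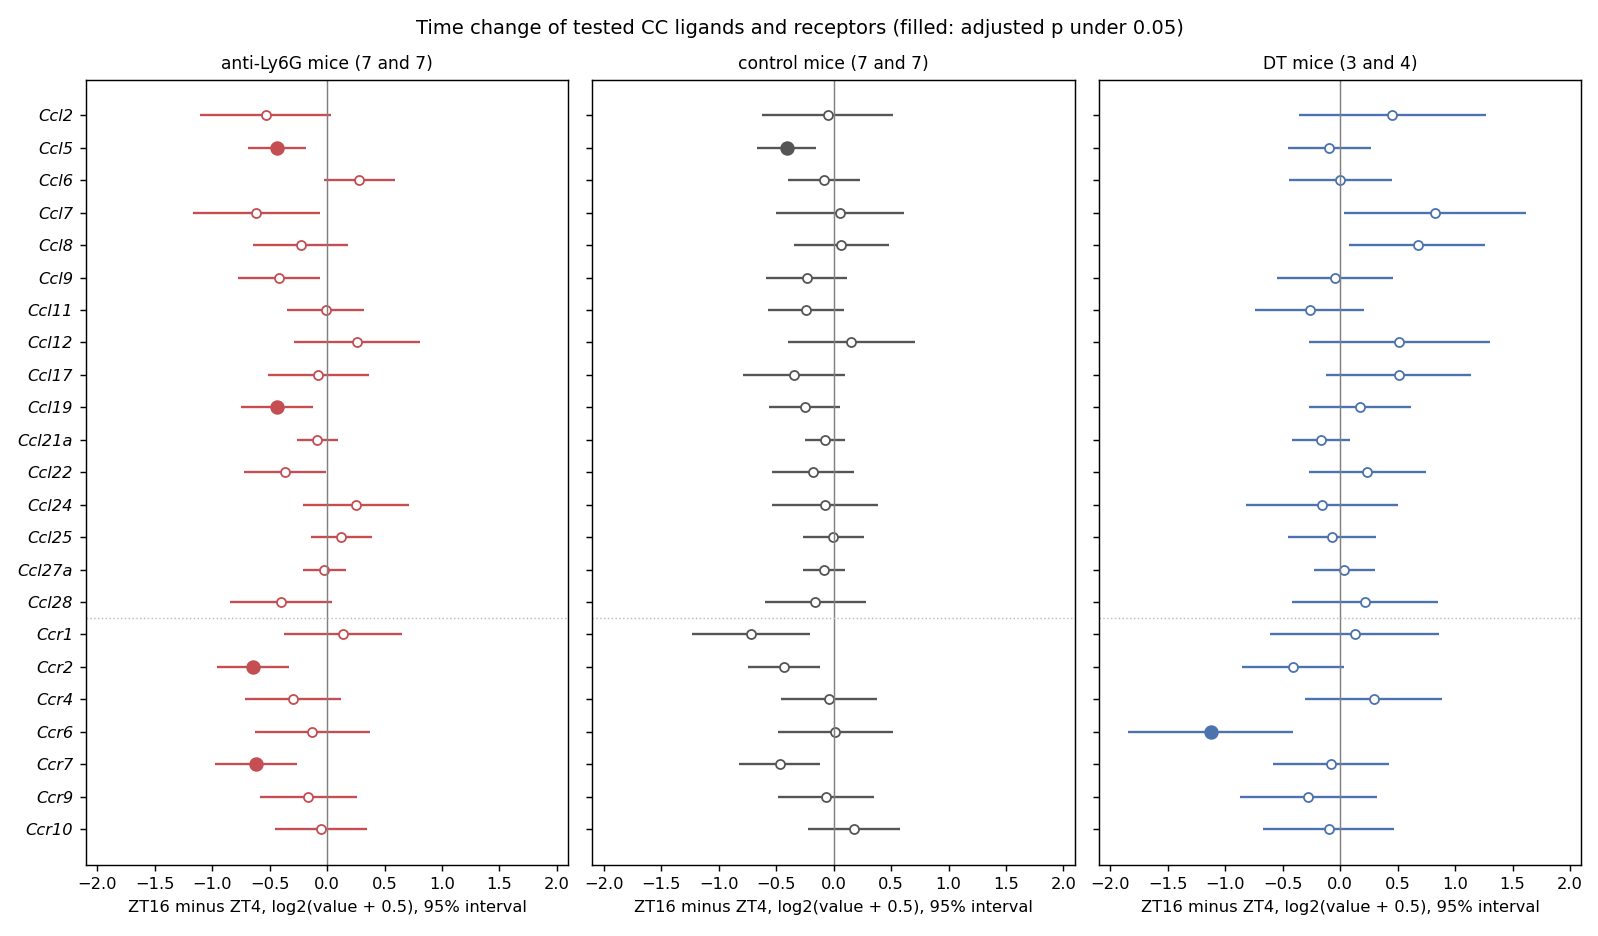
Log2 change at ZT16 relative to ZT4 (x axis, log2 of the normalised value plus 0.5, with 95% interval) for all but 1 of the 24 tested genes in anti-Ly6G, control and DT mice, ligands above the dotted line and receptors below it. Filled points passed the test: Ccl5, Ccl19, Ccr2 and Ccr7 in anti-Ly6G mice, Ccl5 in controls and Ccr6 in DT mice, all on the negative side.

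Ccr2 (chr9:124101950-124113557, plus strand) encodes the receptor by which classical monocytes leave the bone marrow and enter tissue. In anti-Ly6G mice its lowest, median and highest levels were 26.0, 30.2 and 44.3 at ZT16, against 40.4, 46.2 and 64.7 at ZT4. In 6 of 7 ZT16 mice it was below every ZT4 mouse, and in 7 of 7 below the ZT4 median. Ccr2 averaged 32.1 ± 6.41 at ZT16 and 50.4 ± 9.76 at ZT4 (SD, n = 7 each), a fall of log2 -0.64 ± 0.15 (SE) or 0.640-fold with an adjusted p of 0.00263. The change was -0.59 in the July mice and -0.68 in the September mice. In controls the levels were 16.9, 30.7 and 42.4 at ZT16, against 32.3, 35.5 and 47.4 at ZT4. There 5 of 7 ZT16 mice were below every ZT4 mouse, and the difference of -0.43 ± 0.15 had an adjusted p of 0.0707. The DT mice had Ccr2 levels of 33.1, 36.5 and 40.5 at ZT16, against 62.0, 55.0, 46.0 and 36.4 at ZT4. These groups overlapped through the lowest ZT4 mouse, and the difference of -0.41 had an adjusted p of 0.202. Ccr2 thus had a negative time difference under each treatment and passed the test in anti-Ly6G mice. The anti-Ly6G change minus the control change was -0.21 with a 95% interval between -0.65 and 0.23 and an adjusted p of 0.893, so a difference in the time change between these treatments was not detected.

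No ligand of CCR2 passed the test within a treatment. Ccl2, the main attractant of classical monocytes, stood at 0.0493, 0.516 and 1.22 (lowest, median and highest) in ZT16 anti-Ly6G mice, against 0.523, 0.722 and 3.13 at ZT4. In controls it stood at 0.103, 0.614 and 0.925 at ZT16, against 0.166, 0.509 and 1.24 at ZT4. The groups overlapped under both treatments, with log2 differences of -0.53 (adjusted p 0.182) in anti-Ly6G mice and -0.05 (adjusted p 0.937) in controls. Ccl7, another monocyte attractant (chr11:82045712-82047525, plus strand), stood at 0.246, 0.578 and 0.716 in ZT16 anti-Ly6G mice, against 0.444, 0.914 and 2.71 at ZT4. In controls Ccl7 stood at 0.102, 0.696 and 1.27 at ZT16, against 0.116, 0.628 and 1.32 at ZT4. All 7 ZT16 anti-Ly6G mice were below the ZT4 median of Ccl7, while in controls the groups overlapped across nearly their whole range. The difference was -0.62 ± 0.27 (adjusted p 0.106) in anti-Ly6G mice and 0.06 ± 0.27 (adjusted p 0.930) in controls. In DT mice Ccl7 was at 1.65, 2.61 and 0.560 at ZT16, against 0.375, 0.520, 0.695 and 0.784 at ZT4. Of the 3 ZT16 DT mice 2 were above every ZT4 mouse, and the difference of 0.83 ± 0.39 had an adjusted p of 0.149. The direct test between the DT and anti-Ly6G time changes gave 1.45 ± 0.48 for Ccl7 with an adjusted p of 0.0309, the only one of 24 genes to pass in that test, where 19.1% of all genes passed (7.44% as higher). Leaving out ZT4 anti-Ly6G mouse 2 of September, DT mouse 1 or 2 at ZT4, or DT mouse 1 or 2 at ZT16 ended that call, as did a pseudocount of 0.1 and quantile normalisation. Ccl2 in DT mice was at 0.824, 2.80 and 0.679 at ZT16, against 0.530, 0.8293, 0.717 and 1.01 at ZT4 (adjusted p 0.479). Its highest value came from the ZT16 DT mouse that was also highest for Ccl7. Ccl12, a mouse ligand of CCR2, stood at 0.350, 0.986 and 1.46 in ZT16 anti-Ly6G mice, against 0.115, 0.811 and 2.18 at ZT4. In controls Ccl12 stood at 0.102, 0.897 and 1.45 at ZT16, against 0.262, 0.547 and 1.14 at ZT4. Its DT levels were 0.998, 0.836 and 1.19 at ZT16, against 0.522, 0.688, 0.206 and 0.917 at ZT4. The time groups of Ccl12 overlapped under every treatment, with adjusted p of 0.547 in anti-Ly6G mice, 0.785 in controls and 0.392 in DT mice.

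Ccr7 (chr11:99144196-99155077, minus strand) encodes the receptor that takes naive T cells, B cells and mature dendritic cells towards lymphoid tissue. In anti-Ly6G mice it stood at 4.85, 7.77 and 9.67 (lowest, median and highest) at ZT16, against 6.68, 10.7 and 16.9 at ZT4. All 7 ZT16 mice were below the ZT4 median and 2 were below every ZT4 mouse. Ccr7 averaged 7.23 ± 1.72 at ZT16 and 11.5 ± 3.44 at ZT4 (SD, n = 7 each), a fall of log2 -0.62 ± 0.17 or 0.652-fold with an adjusted p of 0.0102. The change was -0.66 in July and -0.59 in September mice. In controls Ccr7 stood at 3.35, 6.84 and 8.59 at ZT16, against 7.56, 7.97 and 13.5 at ZT4. There 6 of 7 ZT16 mice were below every ZT4 mouse, and the difference of -0.47 ± 0.17 had an adjusted p of 0.0831. DT mice had Ccr7 levels of 9.78, 7.24 and 9.14 at ZT16, against 8.33, 9.71, 9.44 and 9.21 at ZT4, and these overlapped with a difference of -0.08 (adjusted p 0.869). The anti-Ly6G change minus the control change was -0.15 with an interval between -0.65 and 0.35.

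Ccl19 (chr4:42754525-42756577, minus strand) is one of the ligands of CCR7 and is made by stromal cells of lymphoid tissue. In anti-Ly6G mice it stood at 1.40, 2.71 and 3.87 at ZT16, against 3.09, 3.77 and 5.18 at ZT4. Of the 7 ZT16 mice 6 were below the ZT4 median and 4 below every ZT4 mouse. The means were 2.82 ± 0.91 at ZT16 and 3.86 ± 0.64 at ZT4 (SD, n = 7 each), a fall of log2 -0.43 ± 0.15 or 0.740-fold with an adjusted p of 0.0398. Leaving out any 1 of 9 of the 14 mice ended this call, with adjusted p of up to 0.134 and a change of -0.30 without ZT16 mouse 1 of July. These were mouse 1 of July and mice 1, 2 and 4 of September at ZT16, and mice 2 and 3 of July and mice 1, 3 and 4 of September at ZT4. Quantile normalisation (-0.33, adjusted p 0.135), a fit with no filter, a fit with only the compared groups, and either batch alone also ended it. In controls Ccl19 stood at 2.20, 2.81 and 4.17 at ZT16, against 2.77, 3.50 and 4.43 at ZT4, overlapping groups with a difference of -0.25 (adjusted p 0.329). DT mice had 2.80, 3.61 and 4.32 at ZT16, against 2.32, 3.89, 3.29 and 2.96 at ZT4 (adjusted p 0.633). Ccl21a, the other ligand of CCR7 and a product of lymphatic endothelium, did not pass the test. It stood at 60.2, 66.0 and 93.3 at ZT16 against 68.5, 74.9 and 83.2 at ZT4 in anti-Ly6G mice, and at 60.3, 69.9 and 85.4 at ZT16 against 66.2, 74.7 and 83.6 at ZT4 in controls. Ccl21a levels in DT mice were 56.7, 71.4 and 75.3 at ZT16, against 76.1, 83.2, 78.2 and 66.0 at ZT4. The intervals of its log2 time change were -0.26 to 0.09 in anti-Ly6G mice, -0.25 to 0.10 in controls and -0.42 to 0.09 in DT mice. The near-identical Ccl21b was below the filter, between 0.0107 and 1.36 over all libraries, with 2 libraries at or above 1.

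Ccl5 (chr11:83525778-83530518, minus strand), a product of T cells and natural killer cells that binds CCR1 among others, fell at ZT16 in both anti-Ly6G and control mice. In anti-Ly6G mice it stood at 6.97, 8.06 and 9.96 at ZT16, against 8.86, 12.0 and 14.0 at ZT4. Of the 7 ZT16 mice 6 were below every ZT4 mouse. Ccl5 averaged 8.22 ± 0.95 at ZT16 and 11.4 ± 2.23 at ZT4 (SD, n = 7 each), a fall of log2 -0.43 ± 0.13 or 0.741-fold with an adjusted p of 0.0121. In controls it stood at 5.01, 6.88 and 8.30 at ZT16, against 7.05, 8.77 and 12.2 at ZT4. All 7 ZT16 controls were below the ZT4 median and 4 were below every ZT4 mouse. The control means were 6.92 ± 1.26 at ZT16 and 9.36 ± 1.81 at ZT4 (SD, n = 7 each), a fall of -0.41 ± 0.13 or 0.753-fold with an adjusted p of 0.0335. Leaving out any 1 of 7 of the 14 mice ended the control call, with adjusted p of up to 0.0958 and the sign kept. These were mouse 1 of July and mice 2, 3 and 4 of September at ZT16, and mouse 2 of July and mice 1 and 3 of September at ZT4. The size also differed between batches, -0.22 in July and -0.59 in September mice under anti-Ly6G, and -0.24 and -0.54 in controls. DT mice had Ccl5 levels of 8.11, 9.18 and 10.9 at ZT16, against 8.35, 10.8, 12.2 and 8.98 at ZT4, which overlapped with a difference of -0.09 (adjusted p 0.768). The DT change minus the control change was 0.31 (adjusted p 0.348), so the absence of a call in DT mice does not show that they differ.

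**Figure D2:**
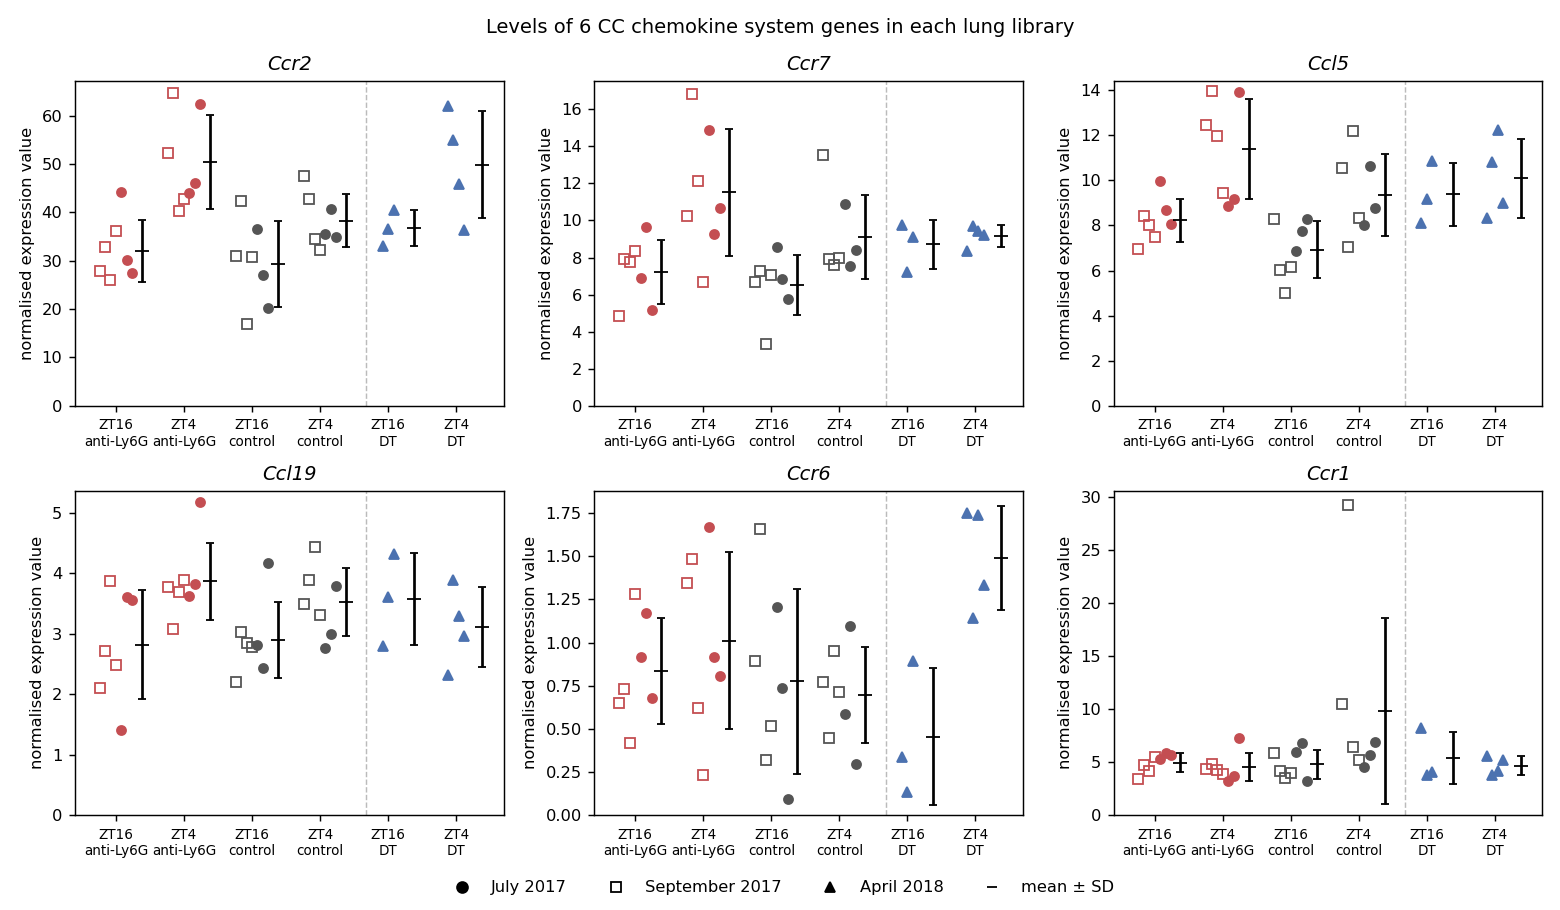
Normalised expression value (y axis) of Ccr2, Ccr7, Ccl5, Ccl19, Ccr6 and Ccr1 in each of 35 lung libraries, with ZT16 left of ZT4 for each treatment, the mean and SD beside the points and a marker for each batch. Ccr2 and Ccl5 sit lower at ZT16 than at ZT4 in anti-Ly6G mice, Ccr6 separates the times among DT mice, and a single ZT4 control mouse reaches 29.2 for Ccr1.

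Ccl4, a chemokine made by activated lymphocytes and macrophages, was below the filter and is named here after its values were seen. In controls it stood at 0.0523, 0.326 and 0.554 at ZT16, against 0.507, 0.869 and 1.32 at ZT4. Of the 7 ZT16 controls 6 were below every ZT4 control. With no filter, the fit over all genes gave log2 -0.81 ± 0.16 for this change, with an adjusted p of 0.00127. In anti-Ly6G mice Ccl4 stood at 0.177, 0.411 and 0.577 at ZT16, against 0.145, 0.749 and 0.917 at ZT4, and all 7 ZT16 mice were below the ZT4 median, with a difference of -0.40 and an adjusted p of 0.0917. DT mice had 0.356, 0.505 and 0.390 at ZT16, against 0.604, 0.794, 0.679 and 0.661 at ZT4, which did not overlap (-0.37, adjusted p 0.345). The share of all genes that separate in these few DT mice was not counted. Ccl4 thus had lower values at ZT16 under all 3 treatments, at levels that reached 1 in only 1 library and whose read depth is unknown. Its neighbour Ccl3, a related attractant, ran between 0.0599 and 0.949 over all libraries, and its unfiltered time changes were -0.38 in controls (adjusted p 0.286), 0.01 in anti-Ly6G mice and 0.12 in DT mice.

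Ccr6 (chr17:8236043-8257141, plus strand) encodes the receptor for CCL20 on B cells, some helper T cells and some dendritic cells. In DT mice it stood at 0.337, 0.133 and 0.896 at ZT16, against 1.75, 1.14, 1.74 and 1.33 at ZT4. The groups did not overlap. How many of all genes separate in so few mice was not counted. The means were 0.455 ± 0.395 at ZT16 (SD, n = 3) and 1.49 ± 0.302 at ZT4 (SD, n = 4), a fall of log2 -1.13 ± 0.35 or 0.458-fold with an adjusted p of 0.0281. Leaving out DT mouse 1 or 3 at ZT4, or mouse 1 or 2 at ZT16, ended the call, at most to -0.87 with an adjusted p of 0.157. In anti-Ly6G mice Ccr6 stood at 0.418, 0.730 and 1.28 at ZT16, against 0.234, 0.916 and 1.67 at ZT4, and in controls at 0.0938, 0.735 and 1.66 at ZT16, against 0.299, 0.713 and 1.09 at ZT4. Those groups overlapped almost fully, with differences of -0.13 in anti-Ly6G mice and 0.01 in controls. The DT change minus the control change was -1.14 ± 0.43 (adjusted p 0.0711, where 13.8% of all genes passed, 4.93% as higher and 8.86% as lower), and minus the anti-Ly6G change -0.997 ± 0.43 (adjusted p 0.0988). In these tests 0 of 24 genes passed between DT and control time changes, with 2 at an unadjusted p under 0.05 (29.6% of all genes), and 1 passed between DT and anti-Ly6G time changes, with 4 at an unadjusted p under 0.05 (33.3% of all genes). Ccl20 (chr1:83116766-83119167, plus strand), the ligand of CCR6 made by epithelium and macrophages, was below the filter but stood the other way round in DT mice. Its DT levels were 0.321, 0.539 and 1.01 at ZT16, against 0.259, 0.142, 0.145 and 0.0591 at ZT4, which did not overlap. In anti-Ly6G mice Ccl20 stood at 0.0331, 0.178 and 0.658 at ZT16, against 0.0632, 0.329 and 1.34 at ZT4, and in controls at 0.0329, 0.279 and 0.507 at ZT16, against 0.225, 0.324 and 0.529 at ZT4. With no filter, its DT time change was 0.75 ± 0.27 (adjusted p 0.0756), and the DT change minus the anti-Ly6G change was 1.13 ± 0.33 (adjusted p 0.0211). Ccl8, a ligand of CCR8 in the mouse, also had a positive value in DT mice, with levels of 1.29, 2.51 and 3.60 at ZT16, against 1.04, 1.55, 0.979 and 1.54 at ZT4. Of the 3 ZT16 mice 2 were above every ZT4 mouse, and the difference of 0.67 ± 0.29 had an adjusted p of 0.113. Ccl8 is named after its values were seen.

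The remaining tested ligands and receptors did not pass the test in any time comparison. Among the ligands of CCR4, Ccl22 differed by -0.37 in anti-Ly6G mice (adjusted p 0.136), -0.18 in controls and 0.24 in DT mice, and Ccl17 by -0.08, -0.35 and 0.51 in the same order. Both are products of dendritic cells. Ccr4 itself differed by -0.30, -0.04 and 0.29. Ccl6 and Ccl9, myeloid products with no human counterpart under those names, differed in sign in anti-Ly6G mice, with 0.28 (adjusted p 0.199) for Ccl6 and -0.42 (adjusted p 0.0826) for Ccl9. Their levels there were 78.6, 99.1 and 110.5 for Ccl6 at ZT16 against 59.9, 77.9 and 96.6 at ZT4, and 9.26, 13.6 and 17.6 for Ccl9 at ZT16 against 11.5, 18.5 and 27.3 at ZT4. All 7 ZT16 mice were below the ZT4 median of Ccl9. The eosinophil attractants Ccl11 and Ccl24 and the mucosal ligands Ccl25, Ccl27a and Ccl28 differed by values between -0.40 and 0.25 in anti-Ly6G mice, and by values between -0.24 and -0.0031 in controls. The receptors Ccr9 and Ccr10 differed by -0.16 and -0.05 in anti-Ly6G mice. Exons of Ccr9 share 2223 bases with other genes, among them Slc6a20a on the opposite strand, exons of Ccl25 share 204 with Elavl1, and exons of Ccl27a share 8 with Il11ra1, so reads there could belong to either gene. The receptors below the filter, Ccr3 and Ccr8, reached at most 0.410 and 0.722 in any library.

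Marker genes of some cells that carry these receptors moved in the same comparisons, and those of others did not. Of all tested genes 10.4% fell and 10.6% rose at ZT16 in anti-Ly6G mice. The shares were 4.38% and 4.65% in controls, and 9.98% and 5.3% in DT mice. In anti-Ly6G mice 6 of 8 B cell markers fell at ZT16 and 0 rose, with a median log2 change of -0.99 and Cd79b at -1.09. Their summed level was 33.4, 54.9 and 86.6 (lowest, median and highest) at ZT16, against 65.5, 116.1 and 161.1 at ZT4. Of 11 T cell markers 5 fell, with sums of 35.4, 43.6 and 54.7 at ZT16 against 46.6, 58.4 and 71.8 at ZT4. Of 8 natural killer cell markers 4 fell, with sums of 20.7, 26.2 and 32.1 at ZT16 against 33.1, 37.0 and 60.5 at ZT4. Of 6 classical monocyte markers 3 fell and 1, Chil3, rose. Their summed level was 259.3, 370.2 and 434.3 at ZT16 against 211.1, 312.7 and 405.7 at ZT4. Chil3, also a product of alveolar macrophages, makes up most of that sum, and the sum without it (an alternative chosen after the data were seen) went the other way, at 51.8, 62.5 and 78.8 at ZT16 against 67.9, 90.8 and 180.2 at ZT4. Markers of migratory dendritic cells, which could also carry Ccr7, went either way, with Fscn1 lower (-0.57) and Socs2 higher (0.35) among 5. Their summed level was 161.6, 199.4 and 208.1 at ZT16 against 143.6, 169.8 and 188.6 at ZT4. Listed genes with high values weigh most in such a sum. The median sum was also higher at ZT16 in controls (203.3 against 169.5) and in DT mice (205.6 against 166.5). In follicular and lymph node stroma 2 of 3 markers fell. Of 4 regulatory T cell markers 1 fell, with a median of -0.06, and of 6 markers each of the first and second kind of conventional dendritic cell 0 and 1 fell. Of 5 markers of group 2 innate lymphoid cells 2 rose, Gata3 (0.52) and Rora (0.37), which also encodes a part of the clock. In controls 1 of 8 B cell, 3 of 11 T cell, 4 of 8 natural killer cell and 0 of 6 monocyte markers fell, and 1 of 5 markers of group 2 innate lymphoid cells rose (Rora, 0.37). Summed natural killer cell markers in controls were 18.4, 26.0 and 26.5 at ZT16, against 28.8, 31.8 and 40.7 at ZT4. These did not overlap, and neither did those of anti-Ly6G mice above. In DT mice they overlapped, at 24.0, 31.7 and 32.7 at ZT16 against 28.5, 39.9 and 42.4 at ZT4. How many of the other lists separate was not counted. In DT mice 0 of 8 B cell and 0 of 11 T cell markers passed the test, and summed B cell markers were 38.6, 85.3 and 95.6 at ZT16 against 69.7, 79.7 and 117.2 at ZT4 (lowest, median and highest). In the same mice 7 of 8 club and ciliated airway markers rose, with sums of 38060, 42680 and 46620 at ZT16 against 25290, 29820 and 33040 at ZT4, while 5 of 6 lung endothelium markers fell. The part of these cell types in the changes of Ccr2, Ccr7, Ccl5, Ccl19, Ccr6 and Ccl20 was not tested.

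**Figure D3:**
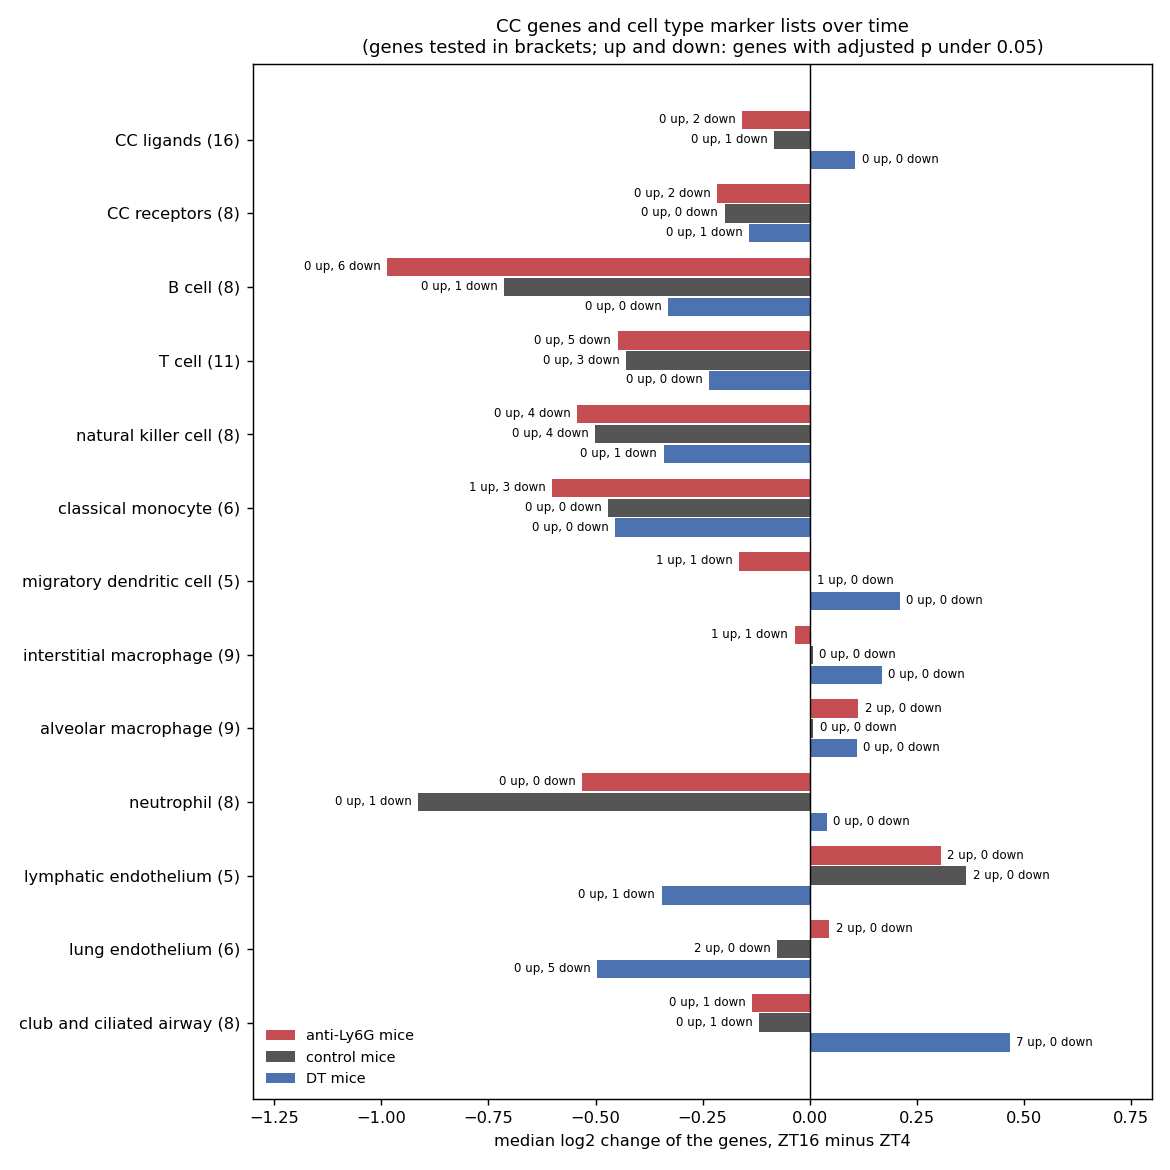
Median log2 time change at ZT16 relative to ZT4 (x axis) of the CC ligands, the CC receptors and cell type marker lists in anti-Ly6G, control and DT mice, with the number of genes that passed the test upwards and downwards beside each bar. Of the lists drawn, those of B cells, T cells, natural killer cells and classical monocytes lie on the negative side under all treatments, at -0.99 for B cells in anti-Ly6G mice, and the airway list lies on the positive side in DT mice.

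The genes around the family were counted from fixed lists. Of all tested genes 20.9% passed the test in anti-Ly6G mice, 9.04% in controls and 15.3% in DT mice. In anti-Ly6G mice the counts of the CXC and NF-kB lists below lie near that share. Of 28 genes of chemokine receptor signalling, 13 fell and 4 rose at ZT16 in anti-Ly6G mice, 10 fell and 1 rose in controls, and 5 fell and 0 rose in DT mice. The G protein subunit gene Gng2 fell under all 3 treatments, by log2 -0.33 in anti-Ly6G mice, -0.33 in controls and -0.63 in DT mice. Rac2 and Dock2, which drive the movement of leukocytes, fell in controls (-0.62 and -0.48). Rasgrp2 and Elmo1 rose in anti-Ly6G mice (0.33 and 0.38). Of 17 genes of the CXC family 3 fell in anti-Ly6G mice, 1 fell in controls, and 2 fell and 2 rose in DT mice. Cxcl15, a product of lung epithelium, fell under every treatment (-1.42 in anti-Ly6G mice, -1.31 in controls and -0.85 in DT mice). The B cell receptor gene Cxcr5 (-1.11) and Cxcl10 (-1.16) fell in anti-Ly6G mice, and in DT mice Cxcl5 (1.35) and Cxcl17 (0.69) rose while Cxcl12 (-0.70) fell. Cx3cr1, which marks patrolling monocytes, fell in anti-Ly6G mice (-0.78) among 3 genes of the XC and CX3C families, and 0 of those passed in controls or DT mice. In controls Cx3cr1 was just short of the limma threshold (-0.61, adjusted p 0.0505), and in DT mice it differed by -0.14 (adjusted p 0.781). Among 4 atypical receptors, the scavenger of CC ligands Ackr2 rose in anti-Ly6G mice (0.40) and Ccrl2 fell in DT mice (-0.41). Of 7 genes that sulfate receptors or cleave chemokines 2 fell in anti-Ly6G mice, 1 in controls and 3 in DT mice, where the peptidase Dpp4, which trims CCL5 among others, fell by 0.41 on the log2 scale. Of 23 NF-kB genes and inducers of chemokines 3 fell and 2 rose in anti-Ly6G mice, 1 fell in controls and 4 fell in DT mice. Ltb, a lymphocyte cytokine needed for lymphoid stroma, fell in anti-Ly6G mice (-0.81) and in controls (-0.70).

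Anti-Ly6G was compared with control IgG at each time. No gene of the table passed the test at ZT16 or at ZT4 (0% of 16786), and so 0 of the 24 CC genes did. At an unadjusted p under 0.05, 0 of 24 CC genes were found at ZT16 (4.18% of all genes) and 4 of 24 at ZT4 (7.06% of all genes), which were Ccr1, Ccl8, Ccr2 and Ccl5. The median difference over the 24 was 0.05 at ZT16 and 0.07 at ZT4, with 16 of 24 positive at each time. Differences were positive in both the July and the September mice for 10 of 24 genes at ZT16 (26.4% of all genes). At ZT4 this held for 10 of 24 (28.9% of all genes).

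**Figure D4:**
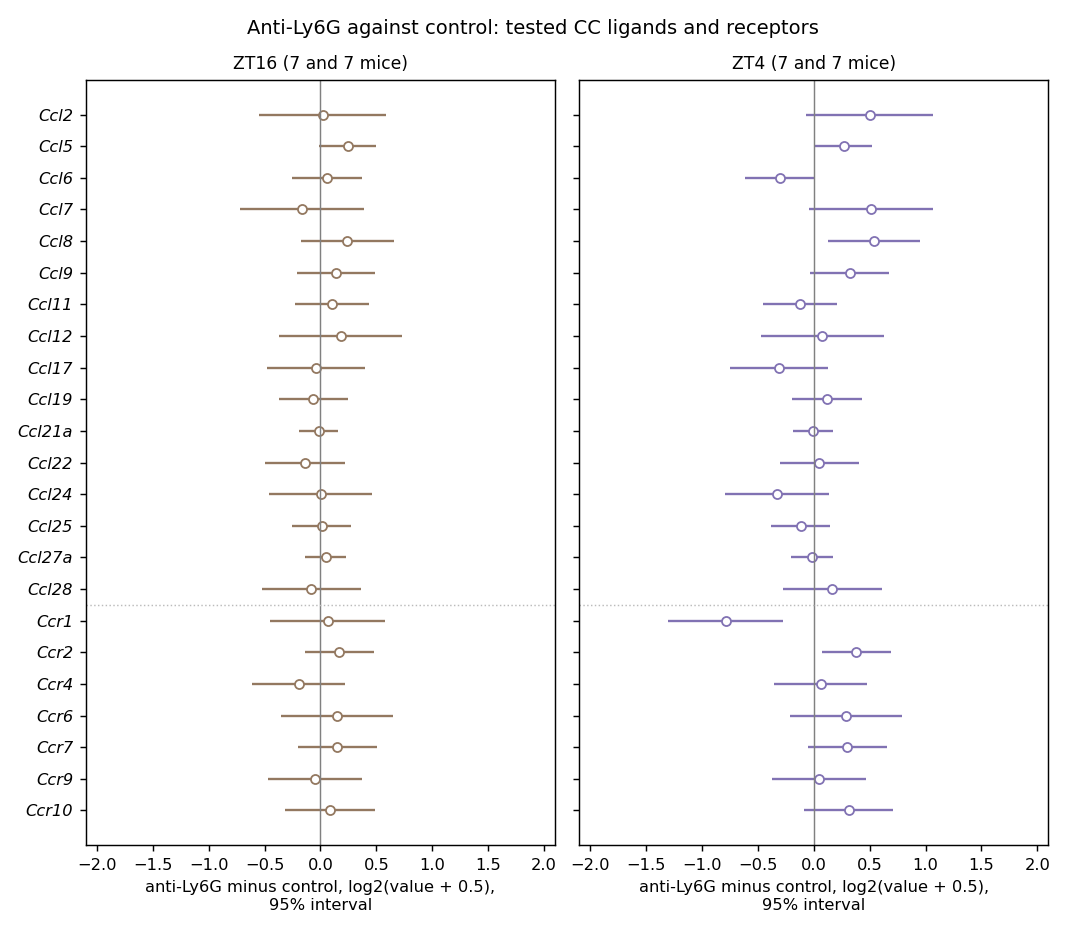
Log2 difference of anti-Ly6G from control mice (x axis, log2 of the normalised value plus 0.5, with 95% interval) for all but 1 of the 24 tested genes at ZT16 and at ZT4, with 7 mice in each group. No point is filled, since none passed the test, and the interval of Ccr1 at ZT4 lies furthest from 0 on the negative side.

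Ccr1 (chr9:123962124-123968692, minus strand) encodes a receptor of CCL3, CCL5, CCL6, CCL7 and CCL9 on neutrophils, monocytes and macrophages, and gave the smallest p of the 24 genes at ZT4. There it stood at 3.26, 4.31 and 7.27 in anti-Ly6G mice, against 4.57, 6.47 and 29.2 in controls. Of the 7 anti-Ly6G mice 5 were below every control and 6 below the control median. The difference was -0.79 ± 0.25, with an unadjusted p of 0.00377 and an adjusted p of 0.629. It was -0.31 in July and -1.15 in September mice, and -0.48 without the control mouse at 29.2. At ZT16 Ccr1 stood at 3.41, 5.29 and 5.85 in anti-Ly6G mice, against 3.26, 4.13 and 6.83 in controls, and these overlapped with a difference of 0.07 (adjusted p 0.994). Within controls Ccr1 was lower at ZT16 than at ZT4 by -0.72 ± 0.25 (adjusted p 0.0688), or -0.41 (adjusted p 0.181) without that mouse. The time change of anti-Ly6G mice minus that of controls was 0.85 ± 0.36, with an unadjusted p of 0.0229 and an adjusted p of 0.812, and 0 of 24 genes passed that test, where 0% of all genes did. At an unadjusted p under 0.05 it was the only one of the 24 (6% of all genes). DT mice had Ccr1 levels of 8.26, 3.84 and 4.11 at ZT16, against 5.60, 3.77, 4.15 and 5.21 at ZT4.

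The control mouse with the highest Ccr1 also had the highest summed neutrophil markers, at 783.9, and the highest Ccl6, at 190.7. The control with the next highest marker sum, 203.5, had the next highest Ccr1, at 10.5, and a Ccl6 of 118.3. Among DT mice the one with the highest marker sum at ZT16, 60.3, likewise had the highest Ccr1, at 8.26. Among anti-Ly6G mice this was not so: the highest Ccr1, 7.27, came with a marker sum of 41.6, while the highest sum was 62.2 in another mouse. Ccl6, which binds CCR1, did not pass the test between anti-Ly6G and control mice, with levels of 78.6, 99.1 and 110.5 against 73.7, 94.6 and 116.2 at ZT16, and 59.9, 77.9 and 96.6 against 65.9, 87.6 and 190.7 at ZT4. Of the 7 anti-Ly6G mice 6 were below the control median at ZT4. The difference was 0.06 at ZT16 and -0.30 ± 0.15 at ZT4 (unadjusted p 0.0556, adjusted p 0.706), and at ZT4 it was 0.04 in July and -0.56 in September mice. The part of neutrophils in the values of Ccr1 was not tested.

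**Figure D5:**
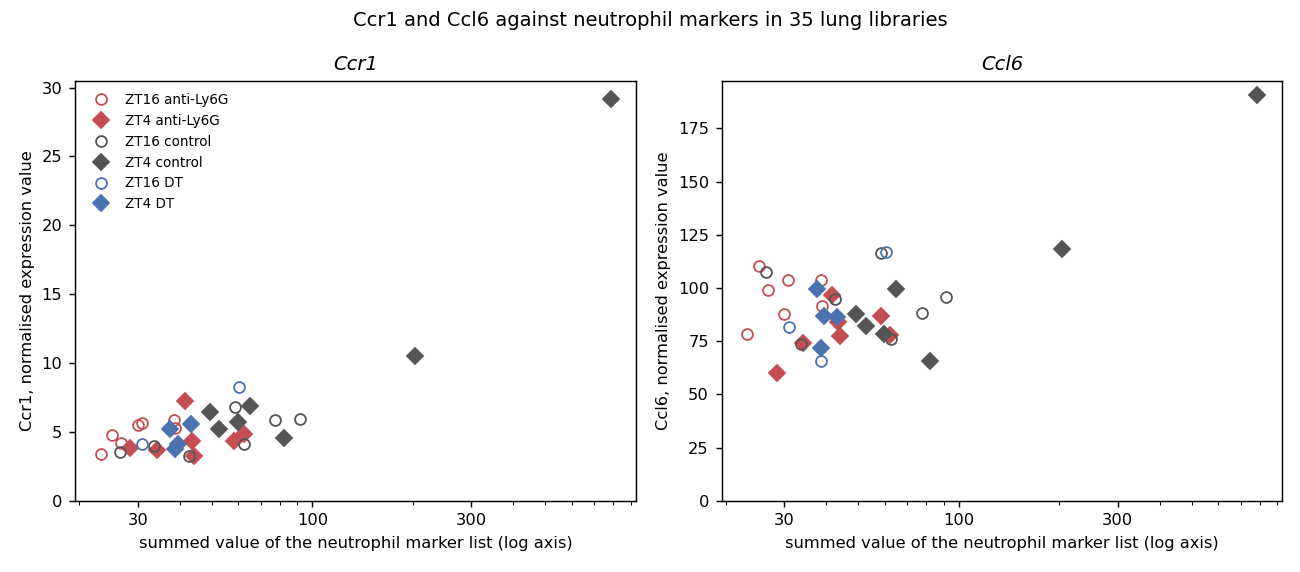
Normalised expression values of Ccr1 and Ccl6 (y axes) against the summed neutrophil markers (x axes, log scale) in 35 lung libraries, with ZT16 as circles, ZT4 as diamonds and treatments by colour. The ZT4 control at a marker sum of 783.9 has the highest value of both genes, 29.2 for Ccr1 and 190.7 for Ccl6, while most libraries lie together at sums under 100.

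At ZT4 Ccr1 and Ccl6, described above, had negative values in anti-Ly6G relative to control mice, as did Ccl11, Ccl17, Ccl21a, Ccl24, Ccl25 and Ccl27a. The genes named in the rest of this paragraph, except Ccl21a, had positive values at that time. Ccr2 at ZT4 stood at 40.4, 46.2 and 64.7 in anti-Ly6G mice, against 32.3, 35.5 and 47.4 in controls, and all 7 anti-Ly6G mice were above the control median and 3 above every control. Its difference was 0.38 ± 0.15 (unadjusted p 0.0176, adjusted p 0.663), and 0.17 at ZT16. Ccl5 was higher than the control median in 7 of 7 anti-Ly6G mice at both times, with 0.24 (unadjusted p 0.0584, adjusted p 0.966) at ZT16 and 0.27 (unadjusted p 0.0383, adjusted p 0.689) at ZT4. It was positive in both batches, at 0.20 and 0.28 in July and September mice at ZT16, and 0.19 and 0.33 at ZT4. Ccl8 stood at 0.907, 1.75 and 2.86 in anti-Ly6G mice against 0.567, 1.22 and 2.16 in controls at ZT16, and at 1.06, 1.93 and 2.98 against 0.822, 1.17 and 1.58 at ZT4. The Ccl8 difference was 0.24 at ZT16 and 0.54 ± 0.20 at ZT4 (unadjusted p 0.0122, adjusted p 0.657). Ccl2 and Ccl7 differed by 0.50 and 0.51 at ZT4, with adjusted p of 0.726 and 0.715, and by 0.02 and -0.16 at ZT16. Ccr7 differed by 0.15 at ZT16 and 0.30 at ZT4, Ccr6 by 0.15 and 0.29, and Ccl12 by 0.18 and 0.08. Ccl19 differed by -0.06 at ZT16 and 0.12 at ZT4, and Ccl21a by -0.02 and -0.01, with 95% intervals of -0.19 to 0.16 and -0.18 to 0.17. None of these differences passed the test over all genes.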

How the data were processed

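Per the labels' protocols, RNA of 35 left lung lobes was amplified with a kit for single cells before Illumina library preparation. Per the submitters' processing notes, the tools and build included kallisto 0.43.1, RSEM 1.2.20, cutadapt, CASAVA 1.8.2 and GRCm38, with neither their order nor their roles stated. The authors deposited a normalised expression signal per gene, which is neither counts nor CPM, and the sources used here do not say whether a batch adjustment was made. Its sum ran between 962649 and 1033550 per library, 0 of the values were 0 and the lowest was 0.00638. Read depth is unknown, so no counting interval is given, and 15351 to 15802 genes per library reached a value of 1. The number of value columns left unmapped was 0. Columns name a group and batch but match no single sample of the labels, so mice are numbered by table order and these numbers pair nothing. The labels speak of mice per group, so each library was taken as a mouse and p-values measure the spread between mice.

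A gene entered the tests where 3 or more libraries had a value of 1 or higher, which held for 16786 genes and left out 5425. With R 4.3.3, limma 3.58.1 was fitted with a mean-variance trend to log2 of the value plus 0.5 over all 35 libraries. The model had a mean for each group and a term for the September batch relative to July, leaving 28 residual degrees of freedom. All tests are two-sided, with Benjamini-Hochberg adjustment over all tested genes and a threshold of 0.05. The DT mice of April share only the estimate of spread. Values for July and September come from the same data split by batch. The fit was checked on simulated data.

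The genes, lists and tests were chosen with earlier results of these data known. Full values are given for every family member that passed the test in a time or antibody comparison or had an unadjusted p under 0.01 in an antibody comparison, and for the receptors or ligands that pair with members that passed. Ccl4, Ccl6, Ccl8 and Ccl9 are given by group after their values were seen. One tested receptor gene is in the counts, and its own values are not reported here. Other members are given by counts and ranges, and genes of the surrounding lists by counts with up to 4 of smallest p named. Promoters and transcripts came from RefSeq and GENCODE M21.

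Alternatives were other pseudocounts, filters, scalings, array weights, no batch term, single batches, the compared groups alone, and leaving out each library in turn.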

Additional observations from a re-analysis of the deposited data

Results flagged for a closer look

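In 11 of 120 sets (1 gene in 1 group of mice) a mouse stood apart from the others, by the gap to its nearest neighbour divided by the range. Chance marks about 1 in 20 such sets if levels are normally distributed, which was not checked for these untransformed levels. The ZT16 DT group, with 3 mice, was not examined. Ccr1 reached 29.18 in ZT4 control mouse 2 of September, beside a nearest level of 10.5, and the same mouse had a Ccl6 of 190.7 beside 118.3. Anti-Ly6G mouse 3 of July at ZT4 stood apart for 3 genes, with a Ccl12 of 2.181 (nearest 0.932), a Ccl19 of 5.175 (nearest 3.89) and a Ccr1 of 7.268 (nearest 4.82). Among ZT16 anti-Ly6G mice, mouse 1 of September had a Ccl28 of 1.609 (nearest 0.779) and mouse 2 of July a Ccr9 of 1.606 (nearest 1.06). Among ZT16 controls, Ccl19 reached 4.169 in mouse 3 of July (nearest 3.03), Ccl24 reached 1.613 in mouse 2 of September (nearest 0.709), and mouse 1 of July was lowest for Ccl25 at 3.763 (nearest 5.36) and highest for Ccl9 at 17.81 (nearest 12.5).

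The time change of Ccl7 differed between DT and anti-Ly6G mice by 1.445 on the log2 scale (limma adjusted p 0.0309), with a positive value in DT mice and a negative one in anti-Ly6G mice. The level behind it is low, with 8 of 35 libraries at or above 1.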

How the results depend on the processing

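The 55 changes refitted were the time and antibody changes of the tested members chosen by the rule above. They include those of the receptor whose values are not reported here, and leave out Ccl4, Ccl6, Ccl8 and Ccl9. The 55 were refitted under 11 alternatives and with each of 35 libraries left out, 1276 values in all. Of these 1239 kept their side of the threshold, 32 lost a call, 5 gained one, and 0 reversed a called sign, with the sign kept in 141 of 141 values of called changes. The number of CC genes called over time in controls, 1 as reported, was 2 with no filter (Ccl4 added), 0 in July or September mice alone, 0 with only the compared groups, and between 0 and 2 with a library left out. Without ZT16 control mouse 1 of July or mouse 2 of September the gene called was Ccr2 (adjusted p 0.0437 and 0.0214) in place of Ccl5, and without ZT4 control mouse 1 of July or mouse 4 of September Ccr1 was added (0.0408 and 0.0426). In anti-Ly6G mice the count of 4 was 0 in July mice alone, 2 in September mice alone, 3 with no filter or quantile normalisation (Ccl19 lost), and between 3 and 4 with a library left out. With only the compared groups it was 4, but Ccl6 as higher (0.28, adjusted p 0.0372) stood in place of Ccl19, and without ZT4 mouse 4 of September Ccl9 (-0.52, adjusted p 0.0279) did. In DT mice the count of 1 was 2 with array weights (Ccl8 added) and between 0 and 2 with a library left out, with 0 without mouse 1 or 3 at ZT4 or mouse 2 at ZT16, Ccl8 in place of Ccr6 without mouse 1 at ZT16, and Ccl7 added (adjusted p 0.0488) without mouse 3 at ZT16. For DT against control time changes the count of 0 was between 0 and 1 with a library left out (Ccr6 without ZT16 control mouse 3 of July or ZT16 DT mouse 3). For DT against anti-Ly6G time changes the count of 1 was 0 with a pseudocount of 0.1 and with quantile normalisation, 2 with no filter (Ccl20 added), 2 with upper quartile scaling and 2 with array weights (Ccl8 added in both), and between 0 and 2 with a library left out. The count stayed at 0 under every alternative run for anti-Ly6G against control at both times and for the difference between their time changes. Single batches hold fewer mice, and other causes were not tested. No paired analysis was possible because the numbers of the table's columns match no replicate number of the labels. Read depth is unknown, so how far low genes such as Ccl4 and Ccl20 are limited by counting could not be measured.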

Other observations

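In DT mice, markers of airway and vessel cells differed between times. Of all tested genes 5.3% rose and 9.98% fell at ZT16 in DT mice, while 10.6% rose in anti-Ly6G mice and 4.65% in controls. Of 8 club and ciliated airway markers 7 rose at ZT16, and of 6 lung endothelium markers 5 fell, with summed levels of 2735, 3002 and 3009 (lowest, median and highest) at ZT16 against 3811, 4166 and 4941 at ZT4. Of 5 lymphatic endothelium markers 1 fell in DT mice, while 2 of 5 rose in anti-Ly6G mice and 2 of 5 in controls. The epithelial cytokine Il33 fell in DT mice by 0.65 on the log2 scale (adjusted p 0.0042).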
